A study of Mus musculus with 35 samples.

Results

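The 10 genes described here encode the enzymes that make, lengthen and desaturate long-chain fatty acids: Fasn, Acaca, Acly, Acss2, Scd1, Scd2, Elovl5, Elovl6, Fads1 and Fads2. They were taken by symbol from RNA-seq count files that list 24421 genes, and all 10 were present and passed the filter on low counts in both sets of libraries. The 35 libraries came from immortalized mouse embryonic fibroblasts (MEFs) of the genotype Nelfb flox/-, which carry a null and a floxed allele of Nelfb, the gene for the B subunit of the negative elongation factor (NELF), and were cultured in DMEM with 10% FBS. The study asked whether mutants of NELFB that do not bind other NELF subunits can stand in for the wild-type protein once the floxed allele is removed. Cell populations received a pLenti vector that was empty (EV) or carried wild-type NELFB (WT), MT194, MT486 or DMT, which joins MT194 and MT486. In the study's binding assays MT194 bound NELFE but not NELFA or NELFC, and MT486 did not bind NELFE. Each of these 5 populations was harvested 7 days after an adenovirus that encodes Cre and GFP (Ad-Cre) or GFP alone (Ad-GFP), with 2 replicates per group, for 20 libraries. The other 15 libraries were stable lines, each grown from a single clone isolated after Ad-Cre, with 3 clones per group. By the labels, WT, MT194 and MT486 clones carried pLenti vectors, whereas WT(N48) clones (pBabe-WT-ATG-NELFB) and Δ-C60 clones carried pBabe vectors. The study's methods instead describe a lentivirus for the Δ-C60 line, and also a protocol for retroviruses. Δ-C60 is a truncation at the carboxyl end that did not bind NELFE.

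Cytosolic acetyl-CoA, the starting material of fatty acid synthesis, is made from citrate by Acly or from acetate by Acss2. Acaca carboxylates it to malonyl-CoA, and Fasn builds palmitate from both. Elovl6 and Elovl5 lengthen fatty acids, Scd1 and Scd2 place a double bond in saturated chains, and Fads1 and Fads2 add double bonds to polyunsaturated ones. Most of these genes are known targets of the sterol regulatory element-binding proteins (SREBPs), transcription factors that are released from membranes when sterols are scarce and that also drive cholesterol synthesis.

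Values are CPM, reads of a gene scaled to a common library total, after TMM normalization, computed in edgeR separately for the populations and for the clones, unless another unit is named. Reads on genes numbered 17969149 to 29080007 per population library and 18413284 to 27816723 per clone library. The smallest count of any of the 10 genes in a population library was 138, for Acss2 in an EV-Cre library, and in a clone library 68, for Acss2 in an MT486 clone.

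Nelfb was checked first, since it is the gene that Cre removes. In EV, Nelfb was at 46.1 and 39.5 CPM with Ad-GFP and at 7.97 and 5.46 CPM with Ad-Cre. With Ad-Cre it was at 75.9 and 60.5 CPM in WT and 104 and 119 CPM in MT194. In MT486 it was at 116 and 128 CPM and in DMT at 169 and 208 CPM. Ad-GFP gave means of 90.1 CPM in WT, 68.1 in MT194, 85.7 in MT486 and 67.6 in DMT. Nelfb RNA thus differed between the constructs after Ad-Cre, with WT lowest and DMT highest, and its part in the comparisons below was not tested. Counts per gene do not separate the vector's transcript from that of the floxed allele. Among the clones, however, clones 1 and 3 labelled WT had 10.3 and 15.5 CPM of Nelfb, close to the EV-Cre level, against 109 CPM in WT clone 2 and 56.3 to 247 CPM in the other 12 clones. Comparisons with WT clones are therefore given with and without the libraries labelled WT clone 1 and 3.

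The libraries had the profile of fibroblasts. The 10 fibroblast markers summed to 21916 and 31179 CPM in EV-GFP and to 23880 and 37143 CPM in EV-Cre, higher with Ad-Cre within each replicate number. The most abundant was Fn1, a matrix protein, at 8828 and 13754 CPM in EV-GFP and 13273 and 22194 CPM in EV-Cre, and Thy1 was at 0 in most population libraries. S100a4, a calcium-binding protein and the 1 fibroblast marker that the naming rule picks, was lower, at 41.0 and 63.4 CPM in EV-GFP and 19.96 and 17.8 CPM in EV-Cre (log2 fold change −1.47 ± 0.24, edgeR adjusted p = 0.0017). The 6 adipocyte markers summed to 105 and 83.5 CPM in EV-GFP and to 69.0 and 44.8 CPM in EV-Cre. Nearly all of this was Fabp4, a fatty acid carrier that is also made outside fat cells, while Lep was at 0 in all of these 4 libraries and Plin1, Cidec and Cfd in most. The 5 leukocyte markers summed to 353 and 445 CPM in EV-GFP and to 249 and 257 CPM in EV-Cre, nearly all of it Cd14, with Adgre1 at 0 in all 4 libraries. Epithelial and endothelial markers summed to no more than 1.18 CPM in any EV library. Fabp4, Cd14 and S100a4 thus had lower values in EV-Cre, as the 10 genes did, whereas Fn1 and the sum of the fibroblast markers did not. After Ad-Cre, Cd14 was also below both Ad-GFP libraries in MT486 (233 and 277 against 396 and 419 CPM) and DMT (184 and 318 against 358 and 439 CPM). In MT194 it was at 201 and 382 CPM with Ad-Cre and at 316 and 355 CPM with Ad-GFP, so that the groups overlapped, while Fabp4 (73.9 and 67.0 against 118 and 81.6 CPM) and S100a4 (34.8 and 33.3 against 59.1 and 66.1 CPM) had lower values. Fabp4 overlapped between Ad-Cre and Ad-GFP in MT486 (85.0 and 60.2 against 112 and 78.8 CPM). It did so too in DMT (78.4 and 56.6 against 99.97 and 78.0 CPM). Within each replicate number Fabp4 was nonetheless lower with Ad-Cre in both constructs. S100a4 overlapped in MT486 (57.2 and 46.9 against 56.0 and 74.5 CPM). In DMT it was lower in both Ad-Cre libraries (28.2 and 17.9 against 38.3 and 44.3 CPM). The part of these markers in the results was not tested. The libraries are bulk RNA, in which fewer cells of a kind and less RNA per cell cannot be told apart.

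Per kilobase of exon, the 10 genes spanned more than 2 orders of magnitude. In EV-GFP, Scd2 stood at 686 ± 189 CPM per kb (SD, n = 2), far above Fads1 at 112 ± 34.0, Acly at 106 ± 9.79 and Scd1 at 90.2 ± 23.0. Fasn followed at 66.8 ± 0.718, Fads2 at 60.6 ± 17.99, Elovl6 at 49.6 ± 16.2 and Elovl5 at 40.2 ± 13.8 CPM per kb. Acaca, at 4.77 ± 0.372, and Acss2, at 2.24 ± 0.123 CPM per kb, were the lowest. Neighbours between Fads1 and Scd1 and between Fasn and Elovl5 lay within an SD of each other, whereas Scd2, Acaca and Acss2 stood apart. WT(N48) clones had the same extremes, with Scd2 at 302 ± 158 and Acss2 at 0.622 ± 0.224 CPM per kb (SD, n = 3).

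The first question was what removal of Nelfb did to these genes in cells without a NELFB construct. With EV, 9 of the 10 genes were lower after Ad-Cre than after Ad-GFP, against 5.94% of all 13805 genes tested that were called lower. A gene was called when its edgeR quasi-likelihood p, adjusted by Benjamini-Hochberg over all genes tested, was under 0.05 and its log2 fold change was over 0.5 in size. The median log2 fold change of the 10 genes was −1.71, and that of all genes was 0.00. Elovl5 was the exception.

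The desaturases Scd1 and Scd2 showed the largest differences. Scd1 (chr19:44394455-44407879, minus strand, mm10) was at 362 and 521 CPM in EV-GFP and at 53.4 and 62.6 CPM in EV-Cre. Its log2 fold change was −2.93 ± 0.24 (SE), which left 13.2% of the Ad-GFP level (edgeR adjusted p = 2.53e-05). Scd2 (chr19:44293674-44306864, plus strand), the most abundant of the 10, went from 3019 and 4478 CPM to 441 and 658 CPM, a log2 fold change of −2.77 ± 0.35 (edgeR adjusted p = 0.00027). The lowest EV-GFP library was well above the highest EV-Cre library for both. The genes are close copies of each other, and reads that align equally well to both are largely left out by the mapping quality filter, so these counts stand for the stretches in which they differ.

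Fads1 and Fads2, the desaturases of polyunsaturated fatty acids, lie near each other on chromosome 19 (chr19:10182888-10196877, plus strand, and chr19:10062765-10101746, minus strand). Fads1 was at 422 and 653 CPM in EV-GFP and at 117 and 154 CPM in EV-Cre, and its log2 fold change was −1.98 ± 0.32 (edgeR adjusted p = 0.0015). Fads2 went from 158 and 242 CPM to 48.3 and 65.0 CPM, a change of −1.82 ± 0.29 on the log2 scale (edgeR adjusted p = 0.0015). The level that remained was 25.3% of Ad-GFP for Fads1 and 28.3% for Fads2.

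The elongases parted from each other. Elovl6 (chr3:129532355-129638495, plus strand), which lengthens saturated and monounsaturated chains, was at 245 and 392 CPM in EV-GFP and at 56.3 and 62.7 CPM in EV-Cre, a log2 fold change of −2.42 ± 0.29 (edgeR adjusted p = 0.00021). Elovl5 (chr9:77917364-77984519, plus strand), which acts on polyunsaturated chains, was at 107 and 176 CPM against 70.8 and 113 CPM, so that the groups overlapped. Its log2 fold change was −0.62 ± 0.36 (edgeR adjusted p = 0.30). Within each replicate number the Elovl5 value with Ad-Cre was 66.0% and 64.4% of that with Ad-GFP. With replicate numbers entered as a block, Elovl5 was called as well (−0.62 ± 0.09, edgeR adjusted p = 3.5e-05), which made 10 of 10 genes called lower against 13% of all genes.

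The enzymes that supply and condense the building blocks had smaller changes than the desaturases and Elovl6, though not than Elovl5. Fasn (chr11:120805846-120824547, minus strand) was at 726 and 737 CPM in EV-GFP and at 282 and 301 CPM in EV-Cre, a log2 fold change of −1.33 ± 0.16 (edgeR adjusted p = 0.00025). Acss2 (chr2:155517948-155585724, plus strand) went from 21.9 and 23.6 CPM to 8.56 and 6.50 CPM, or −1.59 ± 0.16 on the log2 scale (edgeR adjusted p = 7.17e-05). For Acly (chr11:100476353-100528000, minus strand) the values were 599 and 526 CPM against 253 and 236 CPM, with a log2 fold change of −1.20 ± 0.21 (edgeR adjusted p = 0.0025). Acaca (chr11:84129672-84401651, plus strand) changed least of the called genes, from 77.0 and 86.0 CPM to 38.8 and 50.5 CPM (−0.87 ± 0.16, edgeR adjusted p = 0.0032). No EV-Cre library overlapped an EV-GFP library for any of these 4 genes, and both EV-Cre libraries were below both EV-GFP libraries for 9 of the 10 and for 23.9% of all genes. The number of calls was also 9 without any 1 library and by DESeq2 (6.94% of all genes it gave an adjusted p), while edgeR on the 4 EV libraries alone called 5.

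**Figure D1:**
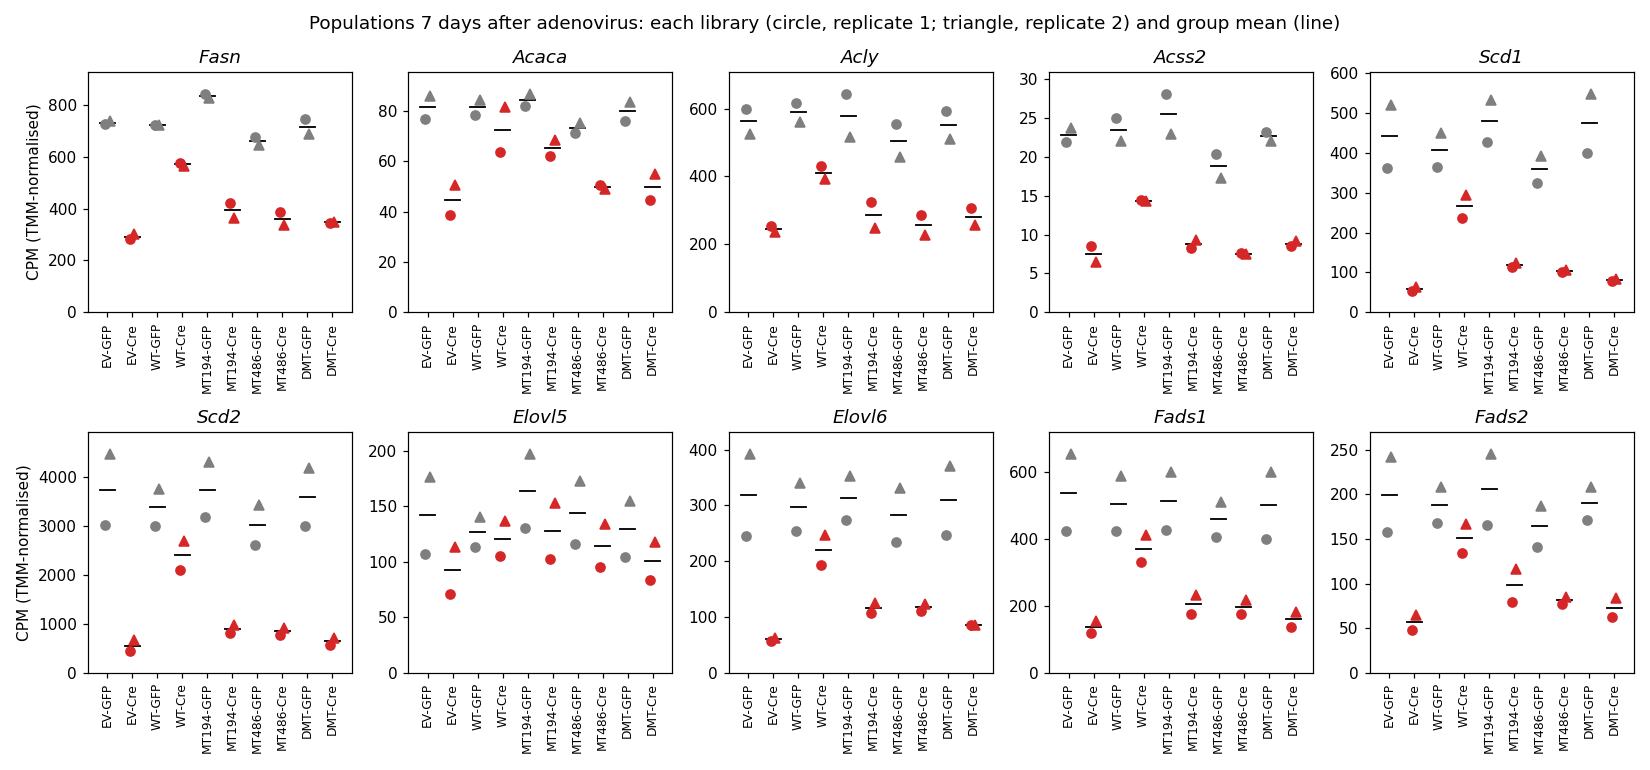
CPM after TMM normalization (vertical axis, linear, from 0) of each of the 10 genes in the 10 population groups (horizontal axis), with a circle for replicate 1, a triangle for replicate 2, a line for the group mean, grey for Ad-GFP and red for Ad-Cre. The red points of EV, MT194, MT486 and DMT lie below the grey ones for all genes but Elovl5 (EV Scd1, 53.4 and 62.6 against 362 and 521 CPM), and those of WT lie closer to them.

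Replicate 2 was higher than replicate 1 in all 10 groups for Scd1, Scd2, Elovl5, Elovl6, Fads1 and Fads2, and lower in all 10 groups for Acly. The replicate numbers thus carried a shift of their own, which the plot of CPM by population shows as a triangle above a circle in nearly every group of the desaturases and elongases.

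The second question was whether wild-type NELFB kept these genes at the Ad-GFP level. With WT, no gene of the 10 was called lower after Ad-Cre (edgeR, 0% of all genes), 3 were lower at an unadjusted p under 0.05 (3.19% of all genes), and DESeq2 called 1 (0.269%). The values were lower in both Ad-Cre libraries than in both Ad-GFP libraries for 8 of the 10 and for 19.4% of all genes, with a median log2 fold change of −0.44 against −0.01 for all genes. Scd1 was at 364 and 449 CPM with Ad-GFP and at 237 and 295 CPM with Ad-Cre, 65.4% of the Ad-GFP level (−0.61 ± 0.22, edgeR adjusted p = 0.65). Fasn was at 722 and 725 CPM against 577 and 566 CPM, 79.0% of the Ad-GFP level (−0.34 ± 0.16, edgeR adjusted p = 0.82). With the replicate block, Acly (−0.52), Acss2 (−0.71) and Scd1 (−0.61) were called lower, 3 of 10 against 1.75% of all genes. A p that missed the threshold without the block therefore does not show that WT held these genes at the Ad-GFP level.

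Set side by side after Ad-Cre, WT was above EV for 9 of the 10 genes, against 3.89% of all genes called higher, and with the block the count was 9 against 11.1%. Scd1 was higher by 2.20 ± 0.23 on the log2 scale (edgeR adjusted p = 0.00032), Scd2 by 2.13 ± 0.34 (edgeR adjusted p = 0.0031) and Elovl6 by 1.89 ± 0.28 (edgeR adjusted p = 0.0023). The 6 others that were called differed by 0.70 (Acaca) to 1.45 (Fads1), and Elovl5 by 0.39 ± 0.36 (edgeR adjusted p = 0.57). The count was 5 when either EV-Cre library or WT-Cre replicate 2 was left out, and also 5 with the 4 libraries compared alone. This comparison and the Cre effect in EV share the EV-Cre libraries. Markers differed as well, with Cd14 at 348 and 402 CPM in WT-Cre against 242 and 248 CPM in EV-Cre. Fabp4 was at 107 and 95.1 against 68.9 and 44.5 CPM, and S100a4 at 54.9 and 58.5 against 19.96 and 17.8 CPM. Their part in the difference was not tested.

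How far Ad-Cre moved these genes in WT was also compared with EV in a test of its own, as an interaction, which was called at an adjusted p under 0.05. Scd1 (2.31 ± 0.32 on the log2 scale, edgeR adjusted p = 0.0069), Scd2 (2.27 ± 0.46, edgeR adjusted p = 0.049) and Elovl6 (1.99 ± 0.39, edgeR adjusted p = 0.039) passed, 3 of 10 against 0.398% of all genes that passed with a positive difference. All 10 differences were positive, from 0.55 for Elovl5 to that of Scd1. With the block all 10 passed, against 9.37% of all genes, and by DESeq2 7 did, against 1.71%, both shares again of positive differences. Without single libraries the count ran from 0 (without WT-Cre replicate 2 or WT-GFP replicate 1) to 2 (without EV-GFP replicate 1), and with the 8 libraries of EV and WT alone it was 0.

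The third question was what the mutants did. With MT194, 7 of the 10 genes were called lower after Ad-Cre, against 2.33% of all genes, and the others were Acaca, Elovl5 and Fads2. With MT486 the count was 6, against 1.28% of all genes, and Acaca, Elovl5, Fads1 and Fads2 were not called. With DMT it was 9, against 5.34% of all genes, all but Elovl5. With the replicate block these counts were 8, 9 and 9, against 7.43%, 6.57% and 12% of all genes. With single libraries left out the count was 4 to 5 for MT194, 2 to 4 for MT486 and 6 to 8 for DMT, and with the 4 libraries of a construct alone it was 0 for MT194 and for MT486. No share of all genes is given for these settings, so the lower counts cannot be read as particular to the 10 genes.

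Scd1 again had one of the largest changes. It went from 429 and 533 CPM to 115 and 123 CPM with MT194 (−2.01 ± 0.23, edgeR adjusted p = 0.00054). With MT486 it went from 325 and 393 CPM to 99.9 and 105 CPM (−1.81 ± 0.23, edgeR adjusted p = 0.0015). With DMT the values were 400.2 and 548 CPM against 78.5 and 83.3 CPM (−2.55 ± 0.24, edgeR adjusted p = 5.68e-05). Every Ad-Cre library was below every Ad-GFP library of its construct. The level that remained was 24.8% of Ad-GFP with MT194, 28.6% with MT486 and 17.1% with DMT, beside the 13.2% of EV and the 65.4% of WT.

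Scd2 and Elovl6 had the same pattern. Scd2 kept 23.9% of its Ad-GFP level with MT194, 27.8% with MT486 and 17.8% with DMT, between the 14.7% of EV and the 70.9% of WT. Elovl6 kept 36.8%, 41.4% and 27.8% in the same order, between 18.7% in EV and 74.3% in WT. Fasn kept 47.1%, 54.6% and 48.6%, between 39.9% in EV and 79.0% in WT. For Acss2 the mutants lay close to EV, with 34.4%, 40.0% and 39.1% of the Ad-GFP level against 33.1% in EV and 61.2% in WT.

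**Figure D2:**
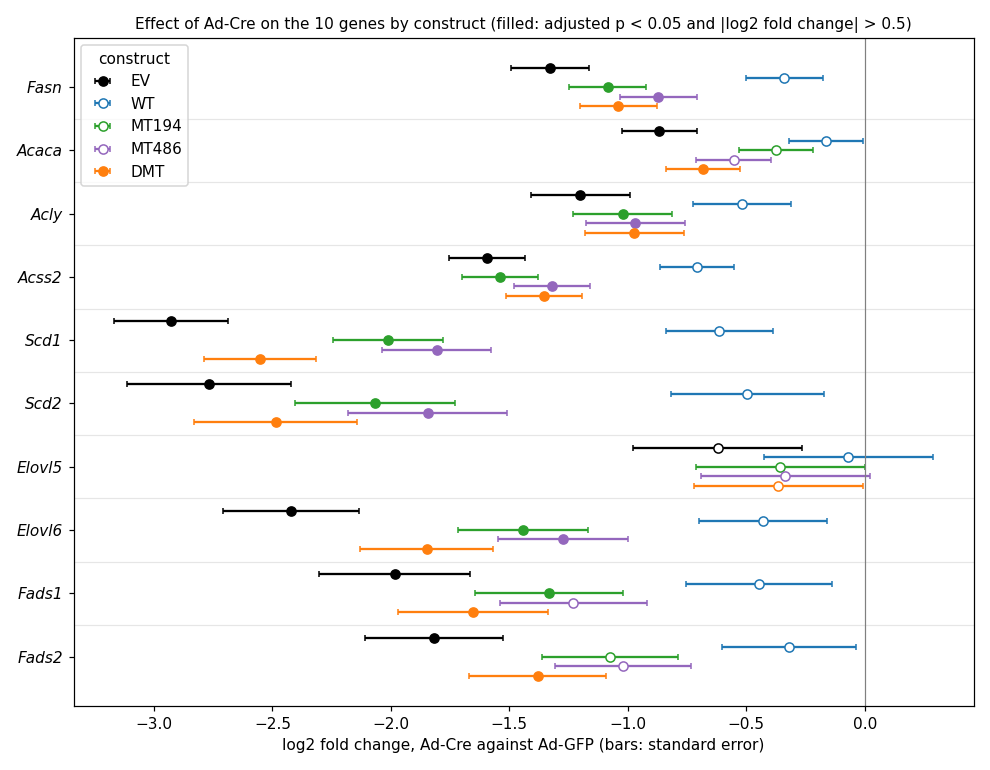
Log2 fold change of Ad-Cre against Ad-GFP (horizontal axis, bars are standard errors of edgeR's fit) for each of the 10 genes and 5 constructs, with 2 libraries per group and filled points for called changes. WT lies nearest to 0 for every gene and EV farthest from it, with Scd1 at −0.61 in WT and −2.93 in EV, and Elovl5 has no filled point.

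In order of their level after Ad-Cre, EV was lowest for all 10 genes and WT highest for 9, with Elovl5 highest in MT194. For 6 genes (Fasn, Acaca, Scd1, Scd2, Fads1 and Fads2) the means rose in the order EV, DMT, MT486, MT194 and WT. For Scd1 no neighbours in that order overlapped, from 53.4 and 62.6 CPM in EV, through 78.5 and 83.3 in DMT, 99.9 and 105 in MT486 and 115 and 123 in MT194, to 237 and 295 CPM in WT. For Scd2 the libraries of EV and DMT overlapped, and so did those of MT486 and MT194. The step from EV to DMT was not called for any of the 10 genes, and the step from MT486 to MT194 was not tested. Relative to each construct's own Ad-GFP level, MT486 instead kept more than MT194 for Fasn, Scd1, Scd2, Fads1 and Fads2 (Scd1, 28.6% against 24.8%). For Acaca MT486 kept less (68.1% against 77.2%).

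Against EV-Cre, MT194, MT486 and DMT had 0 of the 10 genes called higher by edgeR, against 0.0797%, 0.181% and 0.00724% of all genes. At an unadjusted p under 0.05 the counts were 5, 2 and 0, against 4.8%, 6.54% and 1.9% of all genes, and DESeq2 called 3, 2 and 0, against 0.737%, 1.95% and 0.0154%. The median log2 differences were nevertheless 0.56 for MT194, 0.41 for MT486 and 0.23 for DMT, all above the median of all genes, and every one of the 10 genes had a difference above 0 in each. With the replicate block, 6 genes were called higher with MT194 (3.12% of all genes), 5 with MT486 (4.8%) and 0 with DMT (0.225%), and 9, 7 and 6 were higher at an unadjusted p under 0.05, against 15.6%, 16.5% and 7.52% of all genes. Scd1, Scd2, Elovl6, Fads1 and Fads2 were called with both single mutants, Scd1 at 1.04 ± 0.11 with MT194 and 0.83 ± 0.11 with MT486 (edgeR adjusted p = 2.55e-05 and 0.00015), and Acaca with MT194 (0.55 ± 0.09). The 3 comparisons share the EV-Cre libraries.

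As interactions with EV, the Cre effects of MT194, MT486 and DMT differed for 0 of the 10 genes each by edgeR, against 0.00724% of all genes in each case. Shares of all genes for these interactions count positive differences only. The counts at an unadjusted p under 0.05 were 3, 2 and 0, against 1.27%, 2.69% and 0.478% of all genes, and DESeq2 called 0 in each, against 0.036%, 0.186% and 0.00515%. With the block the difference passed for 4 genes with MT194 (0.464% of all genes), for 5 with MT486 (1.62%) and for 0 with DMT (0.00724%), and 6, 8 and 5 had a positive difference at an unadjusted p under 0.05, against 7.77%, 10.6% and 3.14% of all genes. Scd1, Elovl6, Fads1 and Fads2 passed with both single mutants, and Scd2 with MT486 at 0.94 ± 0.17 (edgeR adjusted p = 0.0078). EV-Cre and EV-GFP libraries are common to these tests.

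Against WT-Cre, Scd1 was lower with all 3 mutants, by 1.16 ± 0.23 on the log2 scale with MT194 (edgeR adjusted p = 0.024). The difference was −1.38 ± 0.23 with MT486 (edgeR adjusted p = 0.041) and −1.72 ± 0.23 with DMT (edgeR adjusted p = 0.0021). Acss2 was lower with MT194 (−0.71) and DMT (−0.70), and Fasn (−0.72), Scd2 (−1.90) and Elovl6 (−1.36) with DMT. These made 2 of 10 genes with MT194, 1 with MT486 and 5 with DMT, against 0.826%, 0.0942% and 1.42% of all genes. With the block the counts were 8, 9 and 9, against 4.9%, 2.51% and 6.66% of all genes, and Acaca and Elovl5 were the ones not called with MT194, Elovl5 alone with MT486 and DMT. Leaving out any 1 library of WT-Cre or of the mutant left 0 calls with MT194 and with MT486, and 1 to 2 with DMT. WT-Cre libraries are common to these 3 comparisons.

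With Ad-GFP the constructs were compared with EV alone. Here 0 of the 10 genes were called against EV in WT, MT194, MT486 or DMT by edgeR, against 0%, 0%, 0.00724% and 0% of all genes in either direction. DESeq2 called 0 as well, against 0.00515%, 0.0206%, 0.0515% and 0.0154% of all genes. Without the block the count at an unadjusted p under 0.05 was 0 in each, against 0.608%, 2%, 1.83% and 1.27%. Their log2 differences from EV-GFP ran from −0.31 (Scd2 in MT486) to 0.21 (Elovl5 in MT194). With the replicate block 0 were called, but 5 genes had an unadjusted p under 0.05 in MT486, all of them lower (3.93% of all genes lower), and 1 in MT194, where 7.62% of all genes had one in either direction.

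Across the 10 population groups the genes followed each other closely. Over the 45 pairs of genes, Pearson's r of the group means (log2 CPM) ran from 0.796 to 0.999 with a median of 0.974, where the points share libraries, virus and replicate shift, and the value is a description. Among 11474 genes with enough counts, the profiles most similar to their average outside the 10 included those of Nsdhl (r = 0.995), Acat2 (0.993), Msmo1 (0.993) and Btd (0.993). Nsdhl, Acat2 and Msmo1 make cholesterol, and Btd recycles biotin, the cofactor of carboxylases such as Acaca. Nsdhl was at 119 and 149 CPM in EV-GFP and 11.8 and 11.6 CPM in EV-Cre, and at 75.4 and 81.7 CPM in WT-Cre.

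Other genes of lipid metabolism moved unevenly, beside 5.94% of all genes called lower and 5.84% called higher in EV. Of 21 genes of cholesterol synthesis, 20 were called lower with EV after Ad-Cre, all but Ggps1, with a median log2 fold change of −2.80 against −1.71 for the 10 genes. Fdps, Mvd, Nsdhl and Cyp51 changed by −3.69 to −3.50, and Idi1 had 0.766 and 0.0471 CPM in EV-Cre against 8.75 and 5.71 CPM in EV-GFP. In WT the median of the 21 genes was −0.62, and with DMT, MT194 and MT486 19, 17 and 16 of them were called lower, against 5.34%, 2.33% and 1.28% of all genes.

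Of 23 measured partners of fatty acid synthesis (29 listed), 4 were called lower (5.94% of all genes) and 1 higher (5.84%) in EV. The lower ones were Idh1, a source of cytosolic NADPH (−2.27 ± 0.38, edgeR adjusted p = 0.0019), Aacs, which activates acetoacetate (−1.06 ± 0.17), Slc25a1, the citrate carrier of mitochondria (−0.97 ± 0.27), and Cyb5r3, which passes electrons to desaturases (−0.81 ± 0.19). Pgd, an enzyme of the pentose phosphate pathway that also makes NADPH, was higher (0.66 ± 0.13, edgeR adjusted p = 0.0053). The list's median was −0.46.

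Among 16 genes of acyl-CoA and glycerolipid synthesis the median was −0.02, with Acsl3 (−1.38 ± 0.31) and Lpin1 (−0.91 ± 0.11) lower. Plin2, which coats lipid droplets, was higher, at 117 and 105 CPM in EV-Cre against 61.7 and 52.2 CPM in EV-GFP (0.96 ± 0.18, edgeR adjusted p = 0.0039). In WT it was at 68.9 and 58.9 CPM with Ad-Cre and 62.3 and 59.7 CPM with Ad-GFP. Among 20 genes of fatty acid oxidation the median was −0.19. Cpt1a, which admits fatty acids to mitochondria, was higher (0.98 ± 0.18, edgeR adjusted p = 0.0037), and Acadm (−0.995 ± 0.141), Acads (−0.66 ± 0.17) and Hadha (−0.60 ± 0.13) were lower.

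Of 17 regulators, 3 were called lower in EV, against 5.94% of all genes. Insig1, which holds SREBPs in the endoplasmic reticulum and is itself their target, went from 193 and 227 CPM to 19.1 and 16.2 CPM (−3.57 ± 0.26, edgeR adjusted p = 1.28e-05). Srebf2, the gene of the SREBP best known for cholesterol synthesis, went from 483 and 703 CPM to 131 and 151 CPM (−2.07 ± 0.26, edgeR adjusted p = 0.00029). Srebf1, which encodes the SREBPs best known for fatty acid synthesis, had a log2 fold change of −0.28 ± 0.40 (edgeR adjusted p = 0.73). The third call was Mlxipl, named after its values were seen, at a mean of 0.954 CPM in EV-GFP and 0.0686 CPM in EV-Cre. In WT-Cre, Insig1 was at 122 and 124 CPM and Srebf2 at 425 and 507 CPM, and both were called higher there than in EV-Cre, at 2.81 ± 0.26 and 1.72 ± 0.26.

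**Figure D3:**
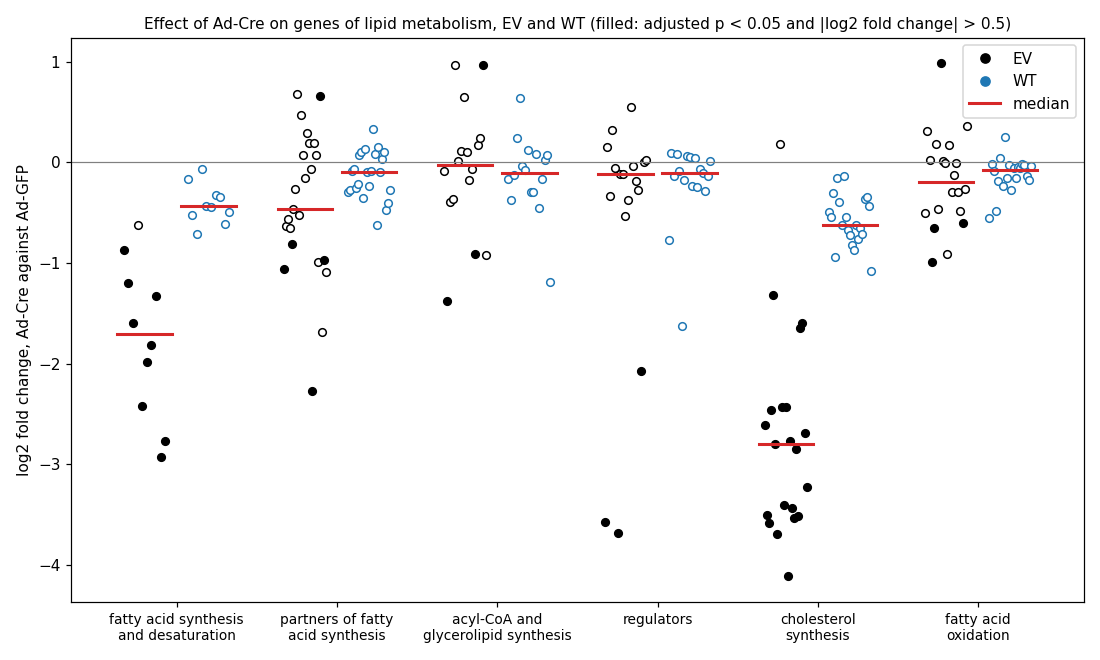
Log2 fold change of Ad-Cre against Ad-GFP (vertical axis) for each tested gene of 6 groups of lipid genes (horizontal axis), in EV (black) and WT (blue), filled where called, with the group median in red. The medians of the 10 genes (−1.71 in EV, −0.44 in WT) and of cholesterol synthesis (−2.80 and −0.62) lie below those of the other groups, which lie between −0.46 and −0.02 in EV.

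Since the 10 genes moved together, the bases just before their start sites were read. RefSeq promoter windows of GRCm38.p6, the assembly of mm10, from 250 bases before to 50 after the start, were found for 7 of the 10, Scd1, Scd2 and Fads1 having no entry. The letters CCAAT, read on both strands and bound by NF-Y, a factor that works beside SREBPs, were in 4 of the 7 windows (Fasn, Acly, Acss2 and Elovl5), against 37.4% of 32851 promoters of the same length. The sterol response element letters TCACNCCAC were in 0 of the 7 (1.24% of all promoters), GGGCGG, bound by Sp1, in 3 (35.7%), and the E box CACGTG in 1, Elovl5 (7.15%). Of 19 promoters of cholesterol synthesis genes, 1 held TCACNCCAC, 15 held CCAAT, 15 held GGGCGG and 3 held CACGTG. The exact letters TCACNCCAC were thus rare there too, and 0 of 7 does not show that SREBP sites are absent. The stretches below show Fasn, which has 3 matches of CCAAT, the last pair overlapping by 2 bases, Acly, which has none before its start, and Elovl5, the gene that was not called in EV without the block and that has 2 matches. Capitals mark CCAAT or its reverse complement ATTGG, and each runs 5′ to 3′ on the gene's strand. The stretches of Fasn and Acly end at the base before the start, and that of Elovl5 stops short of it, so that the 1 of its matches nearer to the start is not in view. The window given for Acaca lies at a start inside the gene.
Fasn, chr11:120824548-120824697, minus strand: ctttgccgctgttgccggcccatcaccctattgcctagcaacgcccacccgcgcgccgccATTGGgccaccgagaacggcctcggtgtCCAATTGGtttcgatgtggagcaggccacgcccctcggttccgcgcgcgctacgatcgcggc
Acly, chr11:100528001-100528150, minus strand: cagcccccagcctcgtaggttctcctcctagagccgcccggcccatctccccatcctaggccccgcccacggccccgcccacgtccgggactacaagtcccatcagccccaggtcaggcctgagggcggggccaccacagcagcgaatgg
Elovl5, chr9:77917165-77917314, plus strand: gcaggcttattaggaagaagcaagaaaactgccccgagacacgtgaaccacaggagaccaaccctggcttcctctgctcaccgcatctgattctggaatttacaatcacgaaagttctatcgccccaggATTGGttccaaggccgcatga
Matches are a description of these windows, and CCAAT stood both before Fasn, which was called in EV, and before Elovl5.

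The stable clones asked how the genes stood in lines kept without endogenous Nelfb. Here the profiles of the 10 genes were less alike. Over the 45 pairs of genes, r of the means of the 5 clone groups ran from −0.775 to 0.980 with a median of 0.555. The genes outside the 10 that were most like their average over these 5 groups were Wnk1, Prpf8, Usp34, Spred2 and Socs6 (r = 0.996 to 0.999), which are not lipid enzymes.

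Elovl6 was called in more comparisons of clones than any other of the 10 genes. It was at 202, 203 and 237 CPM in WT(N48) clones and 241, 171 and 178 CPM in Δ-C60 clones, but at 89.7, 116 and 93.2 CPM in WT, 92.6, 83.5 and 99.3 CPM in MT194 and 97.3, 101 and 84.4 CPM in MT486 clones. The 6 clones with pBabe vectors were all above the 9 with pLenti vectors. Scd1 had the same split, at 197 to 358 CPM in the pBabe clones and 101 to 183 CPM in the pLenti clones, and these 2 were the only ones of the 10 without overlap, where 1.07% of all 13223 genes were higher in every pBabe clone than in every pLenti clone. Fibroblast markers also differed between these clones, with sums of 13990 to 25111 CPM in the pBabe clones and 7343 to 25404 CPM in the pLenti clones, the median being 21674 against 12561 CPM, and their part in the split was not tested. The vectors are those of the labels, which for Δ-C60 differ from the study's methods. By their labels both carried wild-type NELFB in 1 group, though 2 of the 3 pLenti clones so labelled had the low Nelfb given above, and the vector cannot be told apart from the sets in which the clones were derived.

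Relative to WT(N48), Elovl6 was lower in MT194 clones (−1.22 ± 0.17, edgeR adjusted p = 0.0046), in MT486 clones (−1.18 ± 0.17, edgeR adjusted p = 0.012) and in WT clones (−1.11 ± 0.17, edgeR adjusted p = 0.011). Δ-C60 clones, which share the pBabe vector with WT(N48), had a difference of −0.12 ± 0.16 (edgeR adjusted p = 0.83). Without the libraries labelled WT clone 1 and 3, the difference of WT from WT(N48) was −0.87 (edgeR adjusted p = 0.52, 1 library left in WT). Relative to WT clones, Elovl6 was higher in Δ-C60 clones (0.98 ± 0.17, edgeR adjusted p = 0.0081), and 0.74 (edgeR adjusted p = 0.34) without those 2 libraries.

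Fasn was at 379.7, 386 and 348 CPM in MT194 clones, below all 12 other clones, which had 479 to 1015 CPM. It was lower by 1.08 ± 0.20 on the log2 scale than in WT(N48) clones (edgeR adjusted p = 0.014), and the difference from WT clones was −1.06 ± 0.20 (edgeR adjusted p = 0.023) or −1.32 without the libraries labelled WT clone 1 and 3 (edgeR adjusted p = 0.18). Acaca was lower in MT194 than in WT clones (−0.81 ± 0.19, edgeR adjusted p = 0.045), at 57.8, 46.0 and 45.8 CPM against 75.3, 93.6 and 93.9 CPM, and −0.92 without those 2 libraries (edgeR adjusted p = 0.27). Acss2, which was lower after Ad-Cre in the MT194 populations, was at 14.8, 7.31 and 13.2 CPM in MT194 clones against 5.93, 4.90 and 5.89 CPM in WT clones, without a call (edgeR adjusted p = 0.22, and 0.57 without those 2 libraries).

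In counts, 2 of the 10 genes were called in MT194 against WT(N48) clones (5.82% of all 13223 genes in either direction), 2 in MT194 against WT (2.9%) and 1 each in MT486 against WT(N48) (0.287%), in WT against WT(N48) (2.1%) and in Δ-C60 against WT (8.33%). Δ-C60 against WT(N48) gave 0 (0% of all genes). There the count was 0 at an unadjusted p under 0.05 (11.6% of all genes) and 0 by DESeq2 (1.71%). MT486 against WT also gave 0 (0% of all genes), with 2 at an unadjusted p under 0.05 (8.89%) and 0 by DESeq2 (1.14%). Without the libraries labelled WT clone 1 and 3 no gene of the 10 was called in a comparison with WT clones (edgeR), where 1 library stands for the group. The median log2 fold changes of the 10 genes were −0.80 in MT194 and −0.43 in MT486 against WT(N48), −0.32 and −0.14 against WT, −0.05 in Δ-C60 against WT(N48), 0.23 in Δ-C60 against WT and −0.21 in WT against WT(N48). Without the libraries labelled WT clone 1 and 3 the medians against WT were −0.38 in MT194, −0.17 in MT486 and 0.25 in Δ-C60, and that of WT against WT(N48) was −0.35. The comparisons share the WT(N48) or the WT clones, and those of MT194, MT486 and WT with WT(N48) and of Δ-C60 with WT cross the vectors.

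**Figure D4:**
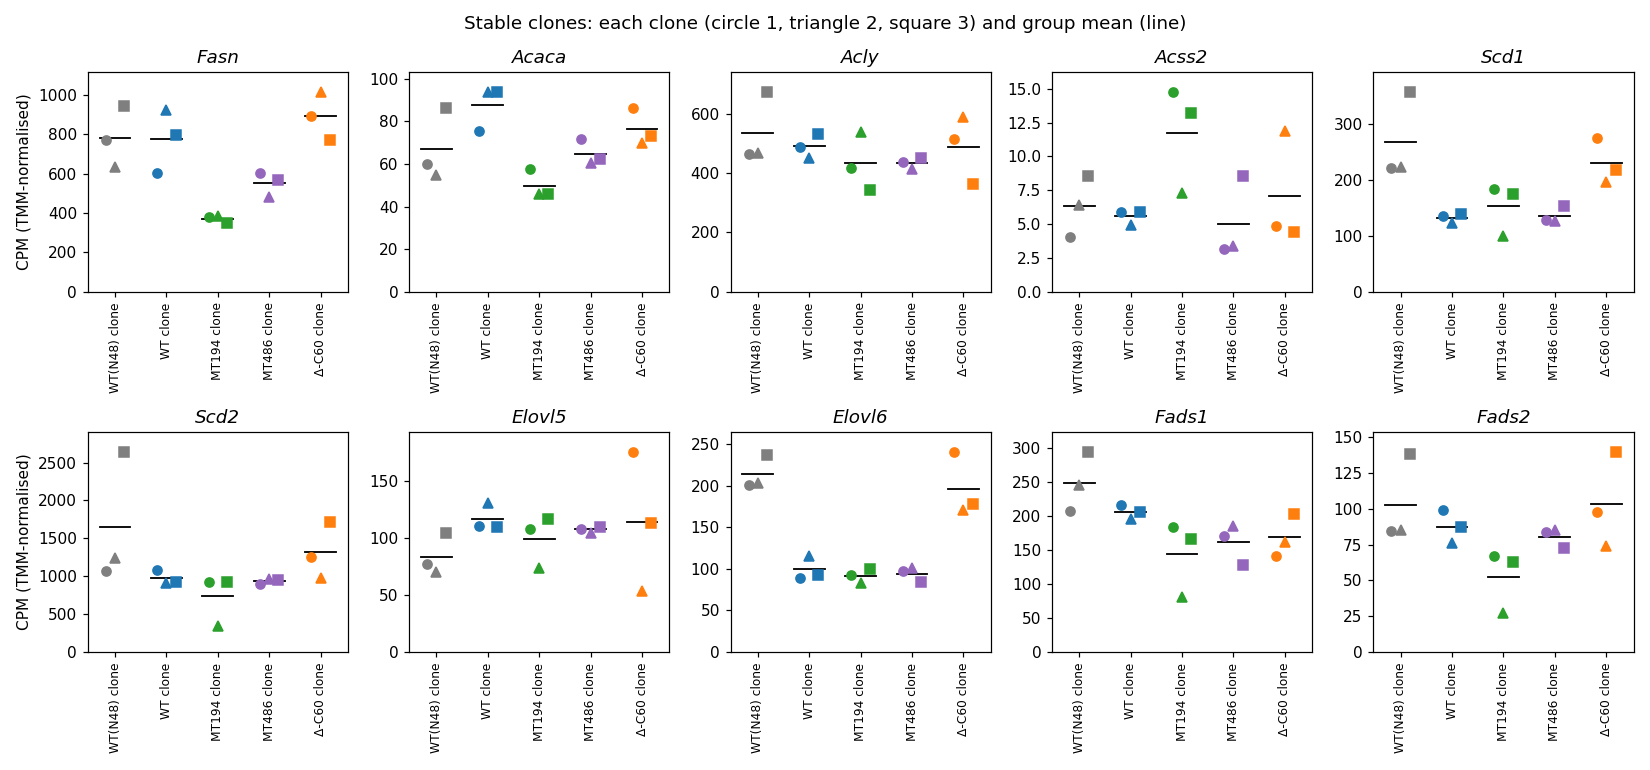
CPM after TMM normalization (vertical axis, linear, from 0) of each of the 10 genes in the 15 clones by group (horizontal axis), with a circle, triangle and square for clones 1, 2 and 3 and a line for the group mean. Elovl6 and Scd1 are higher in all WT(N48) and Δ-C60 clones than in the others, and Fasn is lowest in the MT194 clones, at 348 to 386 CPM.

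Single clones also stood apart. MT194 clone 2 had the lowest values of the 15 for Scd2 (348 CPM), Fads1 (80.9 CPM) and Fads2 (27.2 CPM) as well as for Scd1 (101 CPM). Its fibroblast markers summed to 25404 CPM and its Cd14 was at 111 CPM, both the highest of the 15 clones. WT(N48) clone 3 had the highest for Scd2 (2638 CPM), Fads1 (294 CPM), Scd1 (358 CPM) and Acly (673 CPM). Elovl5 had both its highest and its lowest value among the Δ-C60 clones, 175 CPM in clone 1 and 53.8 CPM in clone 2.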

How the data were processed

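RNA-seq of 35 libraries (20 populations, 15 clones) was analysed from the deposited counts. Per the study's methods, poly(A) RNA was sequenced as 50-base single reads, which the authors aligned to mm10 with Bowtie2, sorted with SAMtools, filtered at a mapping quality of 30 and counted per gene with HTSeq, with DESeq2 for their tests. Versions and the strand setting of the counting are not given in the sources used here. Reads in no gene made up 11.7% to 21.3% of the deposited counts of a population library and 9.14% to 12.0% of a clone library, and were left out of library sizes.

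Counts were filtered (filterByExpr), scaled by TMM and fitted by edgeR's quasi-likelihood test (edgeR 4.0.16, R 4.3.3), with 1 mean per group and the Benjamini-Hochberg adjustment over 13805 genes of the populations or 13223 of the clones. Standard errors came from the log2 fold change and the F statistic. Alternatives were DESeq2 1.42.0, median-of-ratios size factors, no filter, the compared groups alone, a log2 threshold of 1, a replicate block, each library left out and, added after seeing the data, the clones without the libraries labelled WT clone 1 and 3. The code was tested on simulated data.

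By the study's methods the populations came from 2 independent experiments. Deviations of same-numbered libraries from their group means correlated in 45 of 45 pairs of groups (r from 0.420 to 0.730, median 0.586), so the replicate numbers pair the population libraries. The fit without the block is nonetheless the one reported first, since the study's methods name no block, and blocked values are given where they change a call. Each clone is a separate line.

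The 10 genes and all lists were chosen with earlier results of these data known. Named were the 10 genes, Nelfb, from each list the called genes for EV with a mean of at least 50 counts (the 6 largest changes where there were more), and the 5 genes most correlated with the 10 over each set of groups. Some genes that this rule names are not reported here. Gene positions and exon lengths came from the GENCODE annotation of GRCm38, promoters from RefSeq.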

Additional observations from a re-analysis of the deposited data

Results flagged for a closer look

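For 3 of the 10 genes the effect of Cre differed between cells with wild-type NELFB and cells with the empty vector, by the interaction test in edgeR. The difference was 2.31 on the log2 scale for Scd1 (adjusted p = 0.0069), with Scd1 lower in both Ad-Cre libraries than in both Ad-GFP libraries of each construct. It was 2.27 for Scd2 (edgeR adjusted p = 0.049) and 1.99 for Elovl6 (edgeR adjusted p = 0.039). Without single libraries the Scd1 difference ran from 2.03 to 2.55 and lost its call without WT-Cre replicate 2 (edgeR adjusted p = 0.0535) or WT-GFP replicate 1 (0.0756). That of Scd2 ran from 1.96 to 2.59 and lost its call without any 1 of the 8 libraries, and that of Elovl6 ran from 1.62 to 2.29 and was called only without EV-GFP replicate 1. With no filter on low counts Scd2 lost its call (edgeR adjusted p = 0.082). With the 8 libraries fitted alone the adjusted p-values were 0.091, 0.151 and 0.143, and with the replicate block they were 1.14e-07, 6.45e-07 and 4.35e-06 (edgeR).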

How the results depend on the processing

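The limits are the 2 libraries per population group, the shift between replicate numbers and the 2 WT clones with low Nelfb. Counts are the number of the 10 genes called, and the value before the alternatives is that of the fit reported first. For libraries left out or compared alone, no share of all genes is given. None is given either for the higher log2 threshold, median-of-ratios size factors or no filter on low counts. A lower count in those settings therefore cannot be read as particular to the 10 genes.

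With the compared libraries alone, EV Ad-Cre against Ad-GFP gave 5 in place of 9, MT194 0 in place of 7, MT486 0 in place of 6, WT against EV after Ad-Cre 5 in place of 9, and the interaction of WT 0 in place of 3. Against WT-Cre the libraries alone gave 0 for MT194, 0 for MT486 and 2 for DMT, in place of 2, 1 and 5. In clones they gave 0 for Δ-C60 against WT, 1 for MT194 against WT(N48) and 2 for WT against WT(N48), in place of 1, 2 and 1. Fewer residual degrees of freedom are part of that setting.

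With DESeq2 the counts for Ad-Cre against Ad-GFP were 9 for EV, 1 for WT, 8 for MT194, 9 for MT486 and 9 for DMT. The shares of all genes were 6.94%, 0.269%, 3.29%, 2.48% and 6.52%. Against EV-Cre, MT194 gave 3 and MT486 2 (0.737% and 1.95% of all genes), and the interaction of WT gave 7 (1.71% with a positive difference). Against WT-Cre, MT194, MT486 and DMT gave 5, 5 and 8 (1.54%, 0.636% and 2.51%). In clones, Δ-C60 against WT gave 2 (14.8%). Against WT(N48), MT194, MT486 and WT gave 5, 2 and 2 (13%, 4.48% and 8.49%). With a log2 threshold of 1 the counts were 5 for WT against EV-Cre, 1 for MT194 and 3 for DMT against WT-Cre, 0 for Δ-C60 and 1 for MT194 against WT clones. Median-of-ratios size factors gave 1 for MT194 against WT-Cre. No filter on low counts gave 1 for MT194 and 3 for DMT against WT-Cre and 1 for MT194 against WT clones. The causes were not tested.

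With the replicate block, the populations gave 3 for WT Ad-Cre against Ad-GFP, 6 for MT194 and 5 for MT486 against EV-Cre, interactions of 10 for WT, 4 for MT194 and 5 for MT486, and 8, 9 and 9 for MT194, MT486 and DMT against WT-Cre. In clones, same-numbered libraries correlated above 0.1 in 3 of 30 pairs of groups (r from −0.285 to 0.408), so the numbers only name them. In clones the block gave 2 for Δ-C60 and 0 for MT194 against WT (5.43% and 0.393% of all genes in either direction). Without the libraries labelled WT clone 1 and 3, Δ-C60 against WT, MT194 against WT and WT against WT(N48) gave 0 each.

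With each library left out in turn, where a lone library is assumed to vary like the other groups, the counts for Ad-Cre against Ad-GFP ran from 9 to 9 in EV, 0 to 0 in WT, 4 to 5 in MT194, 2 to 4 in MT486 and 6 to 8 in DMT. WT against EV-Cre ran from 5 to 7 and the interaction of WT from 0 to 2. Against WT-Cre the counts were 0 to 0 for MT194 and MT486 and 1 to 2 for DMT. In clones they were 0 to 2 for Δ-C60, 0 to 1 for MT194 and 0 to 0 for MT486 against WT, and 1 to 2 for MT194, 0 to 1 for MT486, 0 to 1 for WT and 0 to 0 for Δ-C60 against WT(N48). Elovl5 reversed its sign in WT, from −0.07 to 0.10 without WT-Cre replicate 1 and 0.09 without WT-GFP replicate 2, with no call and a lowest value of −0.25 without WT-Cre replicate 2. These fits have no block, so a lone library is set against the mean of both replicate numbers, and Elovl5 was higher in replicate 2 in every group. Within each replicate number, Elovl5 with Ad-Cre was 92.9% and 97.2% of the Ad-GFP level in WT. Values under an alternative were sorted for single genes and for the median of the 10 genes in each comparison. Of these, 1355 stayed the same, 171 lost a call, 80 gained one, 10 moved and 2 reversed. For a gene, the same means that direction and side of the threshold were kept. For a median it means a shift smaller than the median standard error, and the 10 that moved were medians. In many comparisons only genes called with or without the block were sorted.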
